A study of Mus musculus with 10 samples.

Results

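The TGF-beta pathway was examined in cerebral cortex through 10 genes, namely the ligands Tgfb1, Tgfb2 and Tgfb3, the latency and presentation proteins Ltbp3 and Nrros, the receptors Tgfbr1 and Tgfbr2, and the signal carriers Smad2, Smad3 and Smad4. They were chosen by symbol from the 53700 genes in the count files, and all 10 were found and had enough reads to be tested. RNA was read from the cortex of female mice aged 4 months, in 5 libraries labelled 5XFAD and 5 labelled 5XFAD;Neu cKO. All of these mice carry the 5XFAD transgenes, which express mutant human genes of familial Alzheimer's disease in neurons and lead to amyloid plaques. The 5XFAD;Neu cKO mice came from a cross with floxed Idol (also called Mylip) and Camk2a-Cre mice, in which Cre is driven by a promoter of excitatory forebrain neurons, and the 5XFAD mice were littermates. The labels call these littermates Camk2a-cre WT, which the study explains for its single-nucleus data as wild type for Idol, and whether they carried Cre or an unrecombined floxed allele is not stated for these libraries. The tissue is a mixture of all cortical cells, so that fewer cells of a type and less RNA per cell cannot be told apart. The comparison asks whether TGF-beta pathway RNAs differed when Idol was removed from excitatory neurons of 5XFAD mice.

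TGF-beta is secreted in a latent form, held closed by its own propeptide and tethered to a presenting protein, either a latent TGF-beta binding protein such as LTBP3 in the matrix or NRROS on the surface of microglia. Once freed, it brings together the type II receptor TGFBR2 and the type I receptor TGFBR1, which phosphorylates SMAD2 and SMAD3. These bind SMAD4 and enter the nucleus to change transcription. In the brain the pathway is best known for keeping microglia in their resting state.

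The library kit primes on the poly(A) tail, so reads come from the 3′ ends of transcripts. Counts per 1000000 reads (CPM) can thus be compared between genes without correction for length. CPM was taken over the reads on the genes tested, with library sizes scaled by the TMM normalization of edgeR. Since reads come from there, the 3′ ends of the transcripts that carry the ligand and presentation results are shown, from GRCm39. Capitals mark the AATAAA or ATTAAA nearest the annotated end, the common motifs of a polyadenylation signal. For Nrros the motif starts only 11 bases from the annotated end. Whether the marked motifs are the signals in use was not tested. The Tgfb1 window is chr7:25404473-25404502 on the plus strand, that of Tgfb2 is chr1:186354986-186355015 on the minus strand, that of Tgfb3 is chr12:86102769-86102798 on the minus strand and that of Nrros is chr16:31960320-31960349 on the minus strand. All 4 lie in the annotated 3′ UTR.
Tgfb1: cctggggggcccATTAAAggtgacagagga
Tgfb2: gctctagtggtaAATAAAttatttcagtaa
Tgfb3: atcacattgagcAATAAAgaagccaccttt
Nrros: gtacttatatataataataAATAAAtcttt
Tgfb1 has ATTAAA at its annotated end, and the other 3 have AATAAA. Searched on the transcript strand in the last 50 bases, AATAAA stood in 57.2% of 21757 protein-coding transcripts, ATTAAA in 16.4% and either of them in 70.5%. Neither stood there in the Ltbp3 transcript.

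Libraries held 4320504 to 7466192 reads on genes in 5XFAD mice and 5148499 to 7246659 in 5XFAD;Neu cKO mice. Mylip, the targeted gene, had 9.32 to 14.7 CPM in the libraries labelled 5XFAD and 7.18 to 19.4 CPM in those labelled 5XFAD;Neu cKO, a log2 fold change of 0.39 (SE 0.25, edgeR adjusted p = 0.777). Its reads did not separate the labels, and which exons are deleted is not given in the sources used here, so a 3′ tag may lie outside the deleted part. The groups below are the libraries as labelled. Across the 19268 genes tested with edgeR's quasi-likelihood test, 42 had a Benjamini-Hochberg adjusted p under 0.05, which is 0.218%. Of these, 11 (0.0571%) were higher and 31 (0.161%) lower in 5XFAD;Neu cKO.

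None of the 10 TGF-beta pathway genes passed the adjusted threshold by edgeR, and none did by DESeq2, the tool the study used, which gave an adjusted p for 3 of them and none for the other 7. At an unadjusted p under 0.05 there was 1 member by edgeR, Smad4, against 7.95% of all genes tested, and there were 2 by DESeq2, Smad4 and Tgfb1, against 7.07%. The exact permutation test was under 0.05 for 2 members, the same genes, against 6.64% of all genes. The 5XFAD and 5XFAD;Neu cKO libraries did not overlap in CPM for 2 members, Tgfb1 and Smad4, against 1.30% of all genes. The log2 fold change was positive for 7 members and negative for 3, with a median of 0.074 beside -0.00056 for all genes tested.

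**Figure D1:**
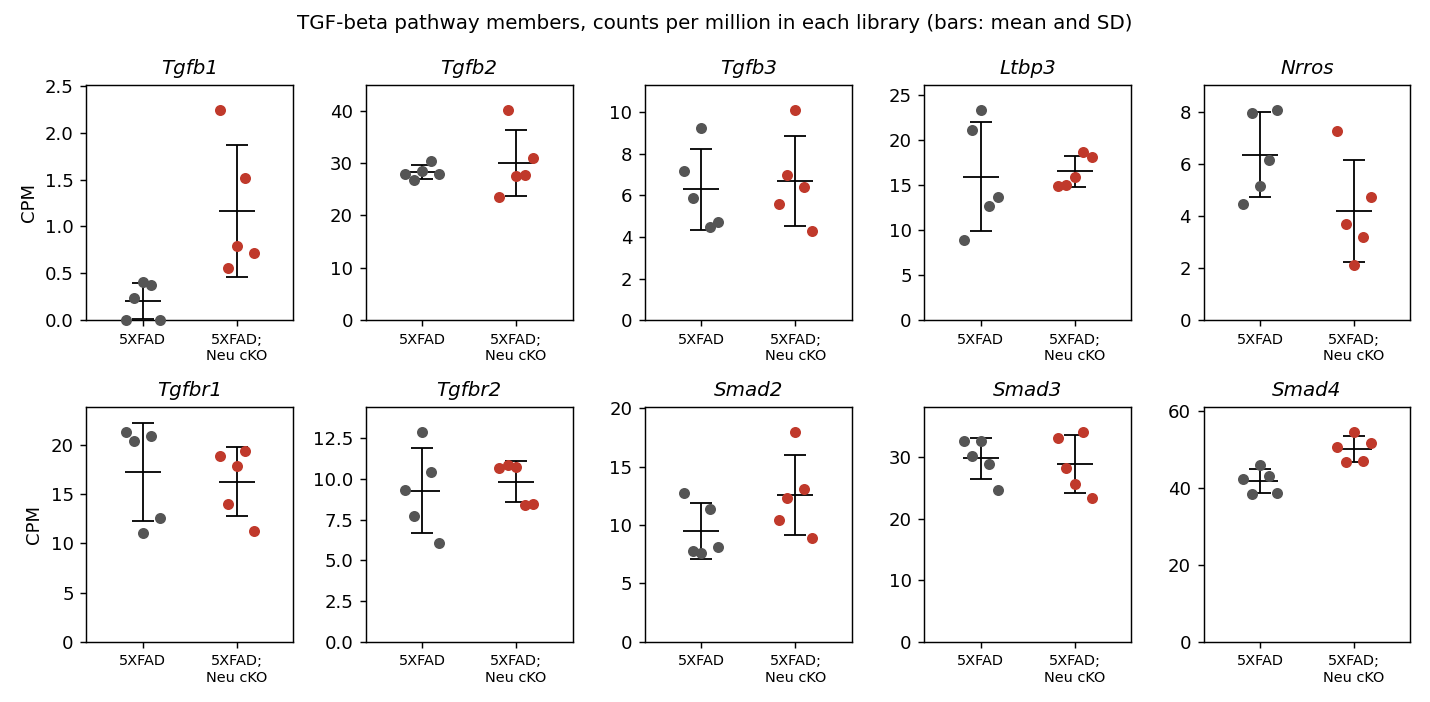
Level in CPM of the 10 TGF-beta pathway genes in each library. Each point is a library (5 per group, 5XFAD in grey and 5XFAD;Neu cKO in red), bars give the mean and SD, every vertical axis starts at 0 and has its own scale. The groups are apart for Tgfb1 (up to 0.408 against at least 0.552 CPM) and for Smad4 (up to 46.1 against at least 46.7 CPM) and overlap for the other 8 genes.

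The 10 genes covered a wide range of levels. By mean CPM over all 10 libraries, Smad4 was highest at 45.9, followed by Smad3 at 29.4 and Tgfb2 at 29.1, which were not ordered, each being above the other in 5 of 10 libraries. Tgfbr1 at 16.7 and Ltbp3 at 16.2 came next and were likewise not ordered, with Tgfbr1 above Ltbp3 in 5 of 10 libraries. Ltbp3 was above Smad2, at 11.04 CPM, in 8 of 10 libraries, and Smad2 was above Tgfbr2, at 9.56 CPM, in 7 of 10, so these steps did not hold in every library. Tgfb3 at 6.49 CPM and Nrros at 5.28 CPM were not ordered either, at 5 of 10. Tgfb1 was lowest at 0.683 CPM and below Nrros in 10 of 10 libraries.

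Among the ligands, Tgfb2 supplied most of the reads. Its share of the reads of Tgfb1, Tgfb2 and Tgfb3 was 74.7% to 86.2% in 5XFAD and 71.7% to 86.1% in 5XFAD;Neu cKO libraries. Tgfb3 made up 12.7% to 24.2% and 11.9% to 26.3%. Tgfb1, the ligand usually linked to glia and immune cells, made up 0% to 1.07% in 5XFAD and 1.16% to 7.14% in 5XFAD;Neu cKO.

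Tgfb1 (ENSMUSG00000002603, chr7:25386390-25404506, plus strand) was counted 0, 1, 3, 2 and 0 times in the 5XFAD libraries and 12, 3, 6, 9 and 5 times in the 5XFAD;Neu cKO libraries. In CPM these were 0, 0.235, 0.408, 0.373 and 0 against 2.24, 0.552, 0.788, 1.51 and 0.718. Every 5XFAD;Neu cKO library was above every 5XFAD library in CPM, although the raw counts of 1 library in each group met at 3 reads. The mean was 0.203 ± 0.196 CPM (SD, n = 5) in 5XFAD and 1.16 ± 0.708 CPM (SD, n = 5) in 5XFAD;Neu cKO, a log2 fold change of 2.34 (SE 1.22, 95% interval -0.098 to 4.78). Most of the reads that carried it past the filter on low counts, more than 10 in all, were the 35 in 5XFAD;Neu cKO, although 6 reads in each group would also have passed. The exact two-sided permutation p of log2 CPM was 0.00794, the smallest that relabelling 5 against 5 libraries can give. In the fit across all genes the unadjusted p was 0.0596 and the edgeR adjusted p was 0.658, so the change did not pass the threshold.

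These values rest on few reads. Pooled over libraries, Tgfb1 had 6 reads in 5XFAD, or 0.219 reads per 1000000 (exact Poisson 95% interval 0.0804 to 0.477), and 35 reads in 5XFAD;Neu cKO, or 1.15 reads per 1000000 (0.804 to 1.61). The intervals cover counting error only. In the 2 libraries with 0 reads, 5XFAD replicates 1 and 5, a count of 0 (taken as under 3 reads) allows up to 0.551 and 0.694 reads per 1000000 before normalization, beside 0.583 reads per 1000000 in the lowest 5XFAD;Neu cKO library. That lowest value, of 5XFAD;Neu cKO replicate 2, rests on 3 reads, as many as in 5XFAD replicate 3, and has a counting error of its own. At this depth none of the 5XFAD libraries was thus clearly apart from 5XFAD;Neu cKO replicate 2. Single libraries were not tested against each other. The gene did not pass edgeR's stricter count filter, which the other 9 members passed.

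Of the blood and border macrophage markers, 2 red cell genes moved with the groups in the same libraries. The red cell genes Hbb-bs, for adult beta globin, and Hba-a1, for alpha globin, rose in 5XFAD;Neu cKO. Hbb-bs had 13.5 ± 10.8 CPM in 5XFAD and 50.6 ± 36.9 CPM in 5XFAD;Neu cKO (SD, n = 5 each), a log2 fold change of 1.87 (edgeR adjusted p = 0.000233). Hba-a1 had 4.40 ± 4.43 against 20.6 ± 8.96 CPM, a log2 fold change of 2.16 (edgeR adjusted p = 0.000302), and shares near-identical sequence with its paralog Hba-a2. The summed level of the blood and border macrophage list was 20.2 to 60.7 CPM against 49.9 to 164.1 CPM, with 2 of 8 tested genes past the threshold, both higher. Of the 8 genes, 4 had a positive and 4 a negative log2 fold change, with a median of 0.015. Without the red cell genes, the rest of the list summed to 14.6 to 20.2 CPM in 5XFAD and 10.3 to 14.2 CPM in 5XFAD;Neu cKO. Ppbp, which marks platelets, a known store of the TGFB1 protein, had 0 to 2 reads in 5XFAD libraries and 0 in each 5XFAD;Neu cKO library. Pf4, made by platelets and border macrophages, had 11 to 28 reads in 5XFAD and 3 to 23 reads in 5XFAD;Neu cKO. 5XFAD;Neu cKO replicate 1 had the most Hbb-bs, 114.8 CPM, and the most Tgfb1 reads, and without it the Tgfb1 log2 fold change was 1.98 (edgeR adjusted p = 0.787). The part of blood RNA in the Tgfb1 values was not tested.

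Tgfb2 (ENSMUSG00000039239, chr1:186354985-186438294, minus strand), the ligand with the most reads, had 26.7 to 30.4 CPM in 5XFAD and 23.6 to 40.1 CPM in 5XFAD;Neu cKO, with 5XFAD;Neu cKO replicate 2 highest and replicate 1 lowest of all 10 libraries. The log2 fold change was 0.083 (SE 0.16, 95% interval -0.24 to 0.41, edgeR adjusted p = 0.966). Tgfb3 (ENSMUSG00000021253, chr12:86102756-86126301, minus strand) had 4.47 to 9.24 CPM and 4.31 to 10.1 CPM, and its log2 fold change was 0.079 (SE 0.34, 95% interval -0.60 to 0.75, edgeR adjusted p = 0.988). For neither ligand did the groups separate. Exons of Tgfb3 overlap those of Ttll5 on the other strand, which had 1987 reads in all. The strand setting of the counting is not given in the sources used here, so reads of these genes may not be told apart.

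Of the latency and presentation proteins, Ltbp3 (ENSMUSG00000024940, chr19:5790932-5808669, plus strand), which anchors latent TGF-beta in the matrix, was spread widely within 5XFAD. Its libraries ran from 8.91 to 23.4 CPM there and from 15.0 to 18.7 CPM in 5XFAD;Neu cKO, all of the latter inside the 5XFAD range. The log2 fold change was 0.048 (SE 0.22, 95% interval -0.40 to 0.49, edgeR adjusted p = 0.989).

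Nrros (ENSMUSG00000052384, chr16:31960320-31984521, minus strand), which presents latent TGF-beta on microglia, was the member with the most negative log2 fold change. It was counted 23, 34, 38, 33 and 36 times in 5XFAD and 39, 20, 16, 19 and 33 times in 5XFAD;Neu cKO. In CPM these were 4.46, 7.98, 5.16, 6.15 and 8.08 against 7.29, 3.68, 2.10, 3.20 and 4.74. The lowest 3 values were all 5XFAD;Neu cKO libraries, while 5XFAD;Neu cKO replicate 1 lay among the highest 5XFAD libraries. The means were 6.37 ± 1.63 CPM and 4.20 ± 1.97 CPM (SD, n = 5 each), with a log2 fold change of -0.60 (SE 0.38, 95% interval -1.37 to 0.17). The difference was within the spread between libraries (edgeR adjusted p = 0.782; p = 0.0794 by the exact two-sided permutation test of 5 against 5 libraries). Without 5XFAD;Neu cKO replicate 1 the log2 fold change was -0.88 (edgeR adjusted p = 0.524), and the exact test was then under 0.05 for 3 members, Nrros with Tgfb1 and Smad4, against 6.92% of all genes.

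The receptors showed no separation of the groups. Tgfbr1 (ENSMUSG00000007613, chr4:47353134-47414931, plus strand), the type I kinase, had 11.003 to 21.3 CPM in 5XFAD and 11.2 to 19.4 CPM in 5XFAD;Neu cKO. Its log2 fold change was -0.080 (SE 0.22, 95% interval -0.52 to 0.36, edgeR adjusted p = 0.980). Tgfbr2 (ENSMUSG00000032440, chr9:115913361-116004800, minus strand), the type II receptor that binds the ligand, had 6.06 to 12.9 CPM and 8.41 to 10.9 CPM, with a log2 fold change of 0.068 (SE 0.27, 95% interval -0.48 to 0.62, edgeR adjusted p = 0.986). Tgfbr1 made up 46.0% to 72.5% of the reads of both receptors in 5XFAD and 56.3% to 69.7% in 5XFAD;Neu cKO.

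Among the SMADs, Smad4 (ENSMUSG00000024515, chr18:73769343-73836915, minus strand), the partner shared by the TGF-beta and BMP branches, was higher in every 5XFAD;Neu cKO library than in any 5XFAD library. It had 42.2, 38.5, 46.1, 43.1 and 38.8 CPM in 5XFAD and 50.7, 46.7, 54.6, 46.9 and 51.7 CPM in 5XFAD;Neu cKO, from 164 to 339 and 254 to 416 reads. The gap was narrow, from 46.1 to 46.7 CPM, and the spread within each group was small, with an SD of 3.15 around 41.7 CPM and of 3.34 around 50.1 CPM. The log2 fold change was 0.26 (SE 0.13, 95% interval 0.0052 to 0.52). Its exact permutation p was 0.00794 (two-sided, n = 5 in each group), again the smallest possible. In the fit across all genes the unadjusted p was 0.0457 and the edgeR adjusted p 0.617. By DESeq2 the adjusted p was 0.350 at a log2 fold change of 0.26.

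Smad2 and Smad3 are the SMADs that the TGF-beta receptor phosphorylates. Smad2 (ENSMUSG00000024563, chr18:76374327-76445180, plus strand) had 7.61 to 12.8 CPM in 5XFAD and 8.91 to 17.99 CPM in 5XFAD;Neu cKO, with 2 of the latter above every 5XFAD library and a log2 fold change of 0.40 (SE 0.26, 95% interval -0.12 to 0.92, edgeR adjusted p = 0.788), or 0.23 without 5XFAD;Neu cKO replicate 3. Smad3 (ENSMUSG00000032402, chr9:63554049-63665476, minus strand) had 24.7 to 32.8 CPM and 23.4 to 34.2 CPM, with a log2 fold change of -0.051 (SE 0.16, 95% interval -0.37 to 0.27, edgeR adjusted p = 0.984). Smad3 made up 71.8% to 81.1% of the reads of both genes in 5XFAD and 58.7% to 76.0% in 5XFAD;Neu cKO, ranges that overlapped. For both genes the difference was within the spread between libraries.

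**Figure D2:**
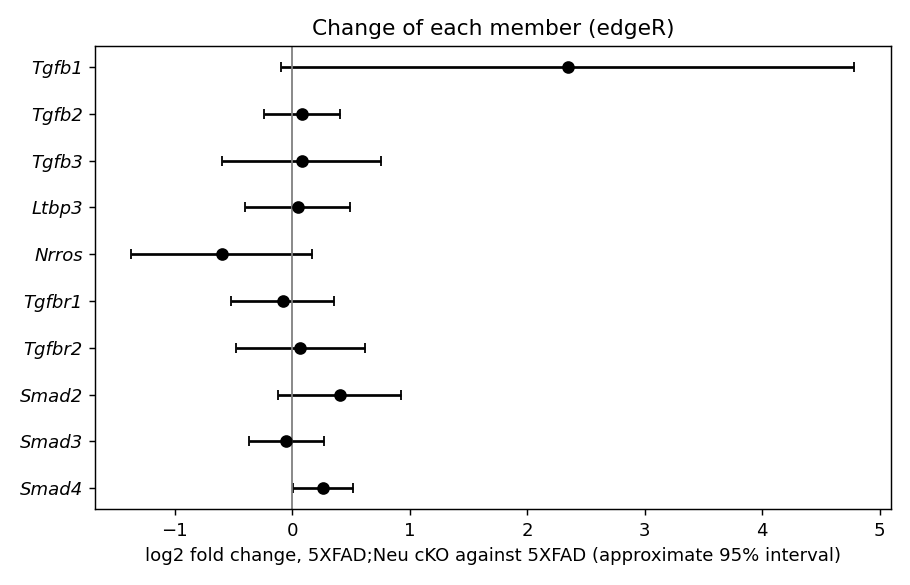
Log2 fold change of each TGF-beta pathway gene, 5XFAD;Neu cKO against 5XFAD, from edgeR, with approximate 95% intervals (horizontal lines, 5 libraries per group). The Tgfb1 estimate of 2.34 has the widest interval, -0.098 to 4.78, and the Smad4 interval, 0.0052 to 0.52, lies just above 0 before adjustment for the 19268 genes tested.

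Microglia are the cells in which Nrros is mainly expressed and in which TGF-beta signalling is best described, and their markers were lower in 5XFAD;Neu cKO. All 15 microglia markers had a negative log2 fold change, with a median of -0.53, and 6 fell past the threshold, namely Csf1r, Cx3cr1, C1qb, C1qc, Tyrobp and Laptm5. No marker was at 0. Their summed level was 421 to 612 CPM in 5XFAD and 310 to 374 CPM in 5XFAD;Neu cKO, groups that did not overlap, with a log2 ratio of the means of -0.59.

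Set against the reads of these 15 markers, the differences between the groups took other sizes. Per 1000 marker reads, Nrros had 7.58 to 17.8 reads in 5XFAD and 6.09 to 20.4 reads in 5XFAD;Neu cKO, a mean log2 difference of -0.10. On this scale, as by CPM, the groups overlapped. Tgfbr1 had 26.2 to 38.6 against 36.2 to 55.6 reads, and Tgfbr2 had 12.6 to 30.7 against 24.2 to 31.2 reads, with log2 differences of 0.52 and 0.70. Smad4 had 62.9 to 109.5 against 125 to 167 reads and Smad2 had 12.6 to 21.7 against 28.7 to 52.2 reads, both without overlap, as were 17.1% of all genes tested on this scale. The log2 differences of the other members were 0.64 for Tgfb2, 0.66 for Tgfb3, 0.71 for Ltbp3 and 0.53 for Smad3, with overlap, and 2.76 for Tgfb1, with 0.5 read added to each count and without overlap. Since the marker reads themselves were lower in 5XFAD;Neu cKO, a gene of equal CPM in both groups is higher on this scale. Which cells the member reads came from was not measured in these libraries.

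**Figure D3:**
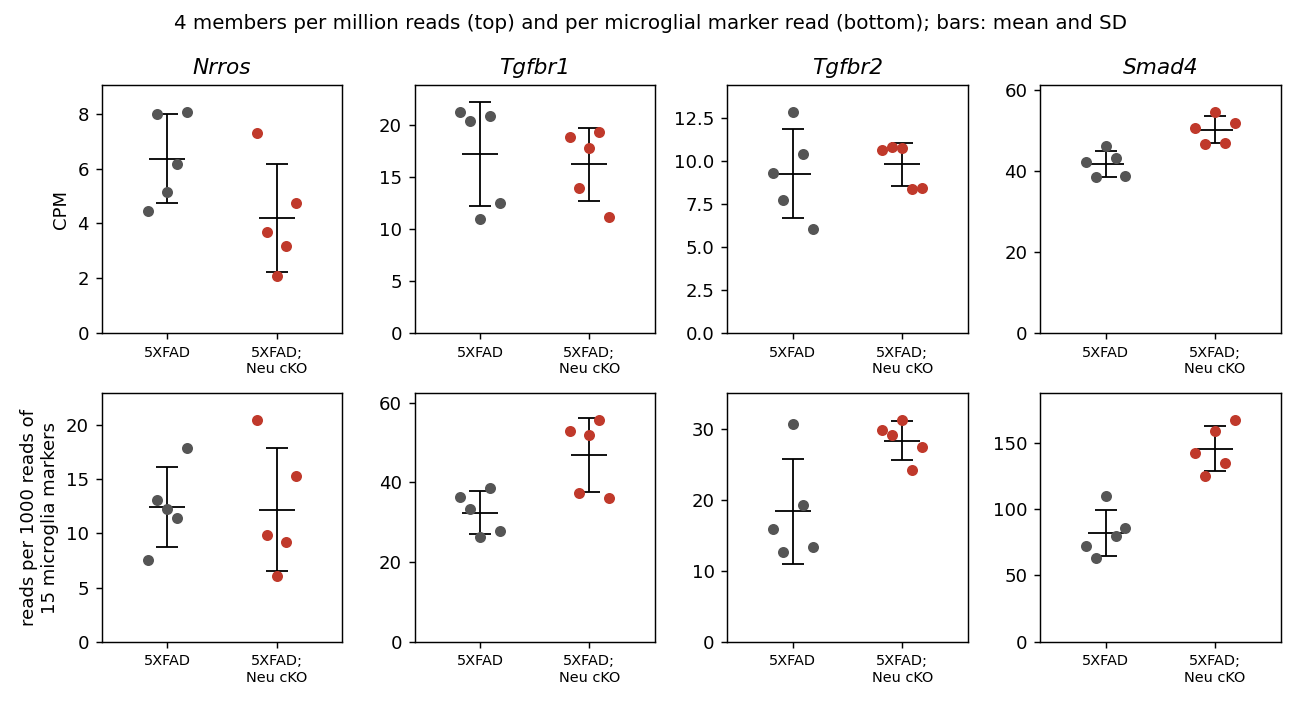
Nrros, Tgfbr1, Tgfbr2 and Smad4 in each library, as CPM (top row) and as reads per 1000 reads of 15 microglia markers (bottom row). Points are libraries, 5 per group, and bars give the mean and SD. Nrros overlaps between the groups by CPM (4.46 to 8.08 against 2.10 to 7.29) and per marker read (7.58 to 17.8 against 6.09 to 20.4). Smad4 is apart on both scales. For Smad4 the separation per marker read follows from that by CPM, since the summed marker CPM was lower in every 5XFAD;Neu cKO library. Of all genes tested, 17.1% were apart per marker read.

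Markers of other cortical cells were also examined. Of 10 astrocyte markers 1 fell, Gfap, from 44.5 ± 10.4 to 24.1 ± 5.71 CPM (SD, n = 5 each, log2 fold change -0.88, edgeR adjusted p = 0.00202), and the list median was -0.16. None of 10 oligodendrocyte markers passed the threshold, although all 10 had negative values with a median of -0.28. None of the 10 endothelial, 10 mural and fibroblast, 10 excitatory neuron or 10 inhibitory neuron markers passed it, with medians of 0.025, 0.021, -0.024 and -0.090. The most counted marker of each class had a mean in 5XFAD of 3007 CPM for astrocytes (Slc1a2), 1195 CPM for oligodendrocytes (Mbp), 117.6 CPM for endothelium (Flt1), 79.6 CPM for mural cells (Rgs5), 2149 CPM for excitatory neurons (Nrgn) and 160.1 CPM for inhibitory neurons (Gad1), so the labelled cortex held RNA of neurons, glia and vessels. The part of cell composition in the member values was not tested.

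Other genes of the pathway were counted by role. None of 15 tested latency and activation genes passed the threshold, and the list median was -0.0055. Itgb8, an integrin subunit that activates TGF-beta, had the highest mean over both groups, at 55.6 CPM in 5XFAD and 57.9 CPM in 5XFAD;Neu cKO. Itgb1 had 59.2 ± 7.45 CPM in 5XFAD and 47.3 ± 3.63 CPM in 5XFAD;Neu cKO (log2 fold change -0.32, edgeR adjusted p = 0.445), and Itgb5 had a log2 fold change of -0.24 (edgeR adjusted p = 0.856).

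None of 13 other receptors and co-receptors passed the threshold, with a list median of -0.089. Bmpr2, a BMP type II receptor, was the most counted at 152.1 against 137.7 CPM (log2 fold change -0.14, edgeR adjusted p = 0.800), and Acvr1b, an activin type I receptor, had a log2 fold change of 0.22 (edgeR adjusted p = 0.732). None of 12 tested other ligands of the family passed it either, with a median of 0.024. Bmp3 was the most counted, with a log2 fold change of -0.25 (edgeR adjusted p = 0.819), and Gdf10 had 0.74 (edgeR adjusted p = 0.882).

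Of the 5 other SMADs none passed. Smad1, a SMAD of the BMP branch, had 25.7 ± 4.70 CPM in 5XFAD and 18.5 ± 3.78 CPM in 5XFAD;Neu cKO (SD, n = 5 each), a log2 fold change of -0.48 whose adjusted p was 0.449 by edgeR. Smad5, of the same branch, had 41.0 against 36.9 CPM, and the inhibitory Smad6, at a mean of 0.644 and 1.31 CPM, had a log2 fold change of 1.01 (edgeR adjusted p = 0.899). None of 19 SMAD partners and brakes passed, with a median of 0.0095. Ppm1a, a phosphatase that acts on SMAD2 and SMAD3, was the most counted at 219.7 against 232.7 CPM, the signalling adaptor Traf6 had a log2 fold change of 0.72 (edgeR adjusted p = 0.628), and Tgif2, counted only a few times, had -2.36 (edgeR adjusted p = 0.822).

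Of the 23 transcriptional targets of TGF-beta that were tested, 1 fell and none rose, with a median log2 fold change of 0.021. The gene that fell was Sparc, a matricellular protein of glia and vessels, from 257 ± 52.6 CPM in 5XFAD to 171 ± 17.1 CPM in 5XFAD;Neu cKO (SD, n = 5 each, log2 fold change -0.59, SE 0.098, edgeR adjusted p = 0.000384), with groups that did not overlap. Timp3 had a log2 fold change of -0.26 (edgeR adjusted p = 0.436), and Id2, the most counted, had 287.8 against 291.3 CPM. Among 13 tested microglial genes known to depend on TGF-beta, Csf1r (log2 fold change -0.65, edgeR adjusted p = 0.00615) and Cx3cr1 (-0.51, edgeR adjusted p = 0.0232) fell, and 12 of 13 had negative values with a median of -0.35. That list shares 5 genes with the 15 microglia markers, both genes that fell included.

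**Figure D4:**
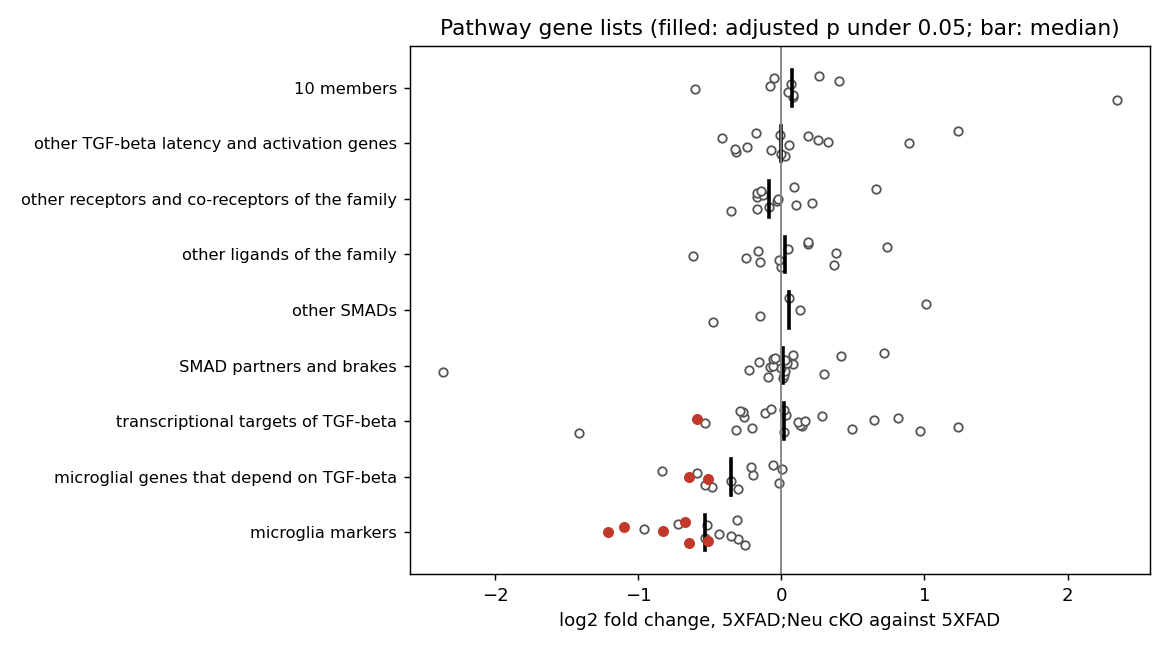
Log2 fold change (5XFAD;Neu cKO against 5XFAD, edgeR) of every tested gene in each list. Each point is a gene, filled points passed an adjusted p of 0.05, and the black bar is the list median. The 10 members and the 6 other lists of pathway genes have medians near 0 and 1 filled point, Sparc. The microglial lists have medians of -0.35 and -0.53.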

How the data were processed

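Bulk RNA-seq of cortex from 10 mice was used. The authors made QuantSeq 3′ FWD libraries, trimmed reads with bbduk, aligned them with STAR 2.7.3a to GRCm39 (Ensembl annotation) and deposited raw htseq-count counts per gene. Per the submitters' processing notes the counter was HTSeq 0.9.1, a version the study's methods give differently. Symbols, coordinates and sequences were taken from GENCODE on the same build, a later release, which named 52610 of 53700 identifiers. Of the list symbols, 1 was not found. Reads on no gene made up 31.3% to 39.9% per library of the reads on genes, on no gene or ambiguous between genes. They entered neither library sizes nor tests. Alignments that were not unique, 15591048 to 23163314 per library, were left out of these percentages, library sizes and tests as well.

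The groups were compared with edgeR 4.0.16 under R 4.3.3 (TMM, quasi-likelihood test, a single group term, removal of genes with 10 or fewer reads in all, Benjamini-Hochberg over all 19268 genes, threshold 0.05; common biological coefficient of variation 0.281). SEs and intervals were derived from the F statistic. Single genes were compared with exact two-sided permutation tests of log2 CPM (prior count 2). The p-values measure the spread between libraries. Alternatives were DESeq2 1.42.0, DESeq2 size factors, filterByExpr, no filter, a robust fit, removal of mitochondrial genes, a block for the replicate number, a prior count of 0.5, and leaving out each library. No pair of libraries within a group agreed within sampling noise. The steps were tested on simulated counts.

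The members and lists were chosen with earlier results of these data known, and the lists came from general knowledge. Named genes were all members, Mylip, list genes past the threshold, the lowest p-values and highest levels per pathway list, and the highest level per marker list. Some items that this rule covers are not reported here. Pf4, Ppbp and Hba-a2 were named after values were seen.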

Additional observations from a re-analysis of the deposited data

How the results depend on the processing

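Genes called across the table numbered 42 by the edgeR fit, 73 by DESeq2, 103 with no filter on low counts, 112 with the replicate number as a block, and 26 to 72 when 1 library was left out (26 without 5XFAD replicate 2, 27 without 5XFAD;Neu cKO replicate 4 or 5, 72 without 5XFAD;Neu cKO replicate 1). No member passed the threshold under any of these, and the smallest adjusted p over 169 alternative values of the members was 0.35, for Smad4 by DESeq2, which gave no adjusted p for 7 members. The replicate numbers did not pair the libraries. The correlations of same-numbered deviations lay between -0.0782 and 0.0536, and no library matched its own number best. The block was therefore kept as an alternative only. Of these 169 values 12 changed sign, all of them when 1 library was left out. The log2 fold change then ran from -0.040 to 0.16 for Tgfb2, -0.125 to 0.27 for Tgfb3, -0.104 to 0.24 for Ltbp3, -0.21 to 0.0298 for Tgfbr1, -0.0489 to 0.22 for Tgfbr2 and -0.12 to 0.017 for Smad3, and the cause was not tested. Tgfb1 ran from 1.98 to 2.74, Smad4 from 0.23 to 0.30, Smad2 from 0.23, without 5XFAD;Neu cKO replicate 3, to 0.53 and Nrros from -0.88, without 5XFAD;Neu cKO replicate 1, to -0.42, without replicate 3 of that group. The exact test stayed under 0.05 for Tgfb1 and Smad4 in each alternative run. Leaving out 1 library could not have changed that, since the groups of both genes did not overlap. Without 5XFAD;Neu cKO replicate 1 the exact test was also under 0.05 for Nrros, as for 6.92% of all genes. Depth limits Tgfb1, which had 6 reads in 5XFAD and 35 in 5XFAD;Neu cKO.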

Other observations

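For the 3 members of lowest unadjusted p, the genes with the most similar profile over the 10 libraries were looked up among 8841 genes with a mean of at least 10 CPM, as a description with no test. For Smad4 they were Dpysl2 (Pearson r = 0.967, Spearman rho = 0.952), Tcaf1 (r = 0.953, rho = 0.964) and Ulk2 (r = 0.942, rho = 0.903). For Tgfb1, which rests on few reads, they were Rnf4 (r = 0.887, rho = 0.912), Nudcd2 (r = 0.885, rho = 0.961) and Gltp (r = 0.881, rho = 0.802). For Nrros they were the mitochondrial tRNA gene mt-Ta (r = 0.939, rho = 0.952), Trip11 (r = 0.927, rho = 0.927) and P4htm (r = 0.918, rho = 0.867). The 10 libraries of each profile share depth and group, and these are the highest values of a search over all those genes.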
